A study of Homo sapiens with 28 samples.

Results

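The genes described here are 10 components and targets of WNT signalling: the secreted antagonists SFRP1, SFRP2, FRZB, DKK1 and DKK4, the receptor LGR5, the transcription factors LEF1 and SP5, and the intracellular feedback inhibitors AXIN2 and NKD1. They were chosen by name, with earlier results of these data known. Counts of these genes set beside a background are therefore descriptive and are no test of the pathway. Every transcript cluster or probeset annotated to 1 of these symbols was taken. That gave 11 of 22011 clusters, with 2 clusters for AXIN2 and 1 for each other gene, and 119 of 287329 exon probesets. The 10 genes are among 14232 with a cluster of a single symbol.

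The study set embryonal carcinoma (EC) lines, pluripotent lines grown out of human germ cell tumours, against embryonic stem (ES) lines, which come from embryos. RNA from 14 cultures was hybridised to Affymetrix Human Exon 1.0 ST arrays, and each array was summarised per gene and per exon. The smaller EC group (n = 3) held NTERA2, 2102Ep and 833KE on a layer of mouse embryo fibroblasts inactivated with mitomycin C, called feeders here, with knock-out DMEM, Serum Replacement and FGF. The larger EC group (n = 5) held those 3 lines with NCCIT and TERA1, all on plastic with FCS in high-glucose DMEM. The ES group (n = 6) held H9, H14, Shef3, Shef5, Shef6 and Shef7 on the same feeders and medium as the feeder-grown EC lines. Every culture was sorted by flow cytometry for SSEA3, a surface antigen of undifferentiated human pluripotent cells. Each array holds 1 line in 1 condition, so the spread within a group is a spread between lines, with no repeat of a culture. All values are on a log2 scale, and their signal over background is unknown. In sorted bulk RNA, fewer cells that express a gene and less RNA of it per cell cannot be told apart.

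WNT ligands are secreted proteins that bind Frizzled receptors together with an LRP co-receptor. This stabilises beta-catenin, which enters the nucleus and switches on target genes through DNA-binding proteins of the TCF/LEF family. SFRP1, SFRP2 and FRZB resemble the ligand-binding part of Frizzled and bind WNT proteins outside the cell, while DKK1 and DKK4 bind the LRP co-receptor. LGR5 binds R-spondins, which raise the amount of WNT receptor at the cell surface. AXIN2 belongs to the complex that degrades beta-catenin, NKD1 acts on Dishevelled, and LEF1 and SP5 are nuclear factors. AXIN2, NKD1, SP5, LEF1, LGR5 and DKK1 are also known as targets of the pathway in many tissues. In early embryos and in pluripotent cells, WNT signalling is known for its part in the step to primitive streak and mesendoderm.

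RefSeq promoters on GRCh38.p14 were listed for 5 of the 10 genes, namely SFRP2, FRZB, DKK1, LEF1 and SP5. The windows of 4 genes are shown, because DKK1, LEF1 and FRZB carry differences described below and SP5 shared the pattern of LEF1 in the NTERA2 line. Each run is the 250 bases before the start of the gene, read 5′ to 3′ on the gene's strand. Capitals mark the TCF/LEF core letters CTTTGA or CTTTGT on the gene's strand, or TCAAAG or ACAAAG where the core lies on the other strand. The windows are chr10:52314031-52314280 (plus strand) for DKK1, chr2:170715087-170715336 (plus strand) for SP5, chr4:108166302-108166551 (minus strand) for LEF1 and chr2:182866638-182866887 (minus strand) for FRZB.
DKK1 promoter: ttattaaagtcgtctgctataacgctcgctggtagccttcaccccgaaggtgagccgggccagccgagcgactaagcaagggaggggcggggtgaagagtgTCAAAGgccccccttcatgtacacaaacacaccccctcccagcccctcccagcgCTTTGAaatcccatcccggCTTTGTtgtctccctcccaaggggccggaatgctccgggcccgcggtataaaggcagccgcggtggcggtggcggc
SP5 promoter: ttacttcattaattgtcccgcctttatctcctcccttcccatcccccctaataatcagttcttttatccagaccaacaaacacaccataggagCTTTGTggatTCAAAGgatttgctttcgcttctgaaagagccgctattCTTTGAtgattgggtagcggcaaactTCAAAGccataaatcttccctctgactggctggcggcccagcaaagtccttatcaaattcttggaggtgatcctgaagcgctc
LEF1 promoter: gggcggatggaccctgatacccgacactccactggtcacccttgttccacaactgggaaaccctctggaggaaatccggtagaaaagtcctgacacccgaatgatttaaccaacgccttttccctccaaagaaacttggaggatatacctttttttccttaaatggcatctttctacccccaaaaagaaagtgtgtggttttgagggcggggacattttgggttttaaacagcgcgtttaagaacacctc
FRZB promoter: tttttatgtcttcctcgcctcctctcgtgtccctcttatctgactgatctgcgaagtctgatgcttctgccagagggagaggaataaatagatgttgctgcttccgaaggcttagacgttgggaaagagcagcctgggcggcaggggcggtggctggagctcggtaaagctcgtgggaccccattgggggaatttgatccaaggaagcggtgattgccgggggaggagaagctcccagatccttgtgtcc

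The DKK1 window holds 3 matches, whose first bases lie 149, 95 and 76 bases before the start. The SP5 window holds 4, at 157, 147, 109 and 83 bases before it. No match overlapped another. Of 35116 RefSeq promoter windows of this length, 22.8% hold at least 1 match, 0.584% at least 3 and 0.057% at least 4. The windows of LEF1, FRZB and SFRP2 hold none of these letters. A match is a run of letters, and binding was not measured.

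Over the whole series, pairs of arrays correlated with r between 0.931 and 0.984 and no pair was identical. The brightest probesets of the pluripotency genes SOX2, NANOG and POU5F1 read above 6.80, the highest array median at exon level, on every array. The brightest SOX2 probeset (2654505) lay between 10.48 and 11.30 in EC on feeders, between 11.27 and 11.94 in EC on plastic and between 11.18 and 11.89 in ES. The brightest NANOG probeset (3403437) lay between 11.23 and 12.43 in EC on feeders, between 11.58 and 12.85 in EC on plastic and between 9.41 and 11.57 in ES. For POU5F1 (2948864) the ranges were 9.04 to 10.11, 8.04 to 9.28 and 7.25 to 9.18. Of 8 further pluripotency markers with a cluster, only GDF3 was called (limma). It was higher by 3.49 in EC on plastic and by 3.50 in EC on feeders, against 3.26% and 1.56% of all clusters called higher. ZFP42 varied between lines (SD 2.96 in EC on plastic and 2.79 in ES). The labels number the arrays with codes, and the 4 arrays with codes up to 13 (H14, Shef5, and NTERA2 and 2102Ep on feeders) were split from the 10 with codes from 17 in the alternative fits. What the codes stand for is not given in the labels.

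The first comparison asked how EC lines on plastic differ from ES lines, with cell type and growth condition changing together. SFRP1, FRZB, DKK1, LGR5 and LEF1 were lower in EC on plastic, with differences of -1.44 to -3.24 (log2). SFRP2, DKK4, NKD1, SP5 and both AXIN2 clusters did not pass the test. With limma, 5 of the 11 clusters were lower at an adjusted p below 0.05, against a background of 1.34% of all clusters called lower. None was called higher, where the background is 3.26%, and at an unadjusted p below 0.05 there were 8 lower and 0 higher, where the background is 7.11% lower and 12.1% higher. The median difference of the 11 clusters was -1.25, beside 0.0046 over all clusters.

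SFRP1 (cluster 3132782, chromosome 8) read 5.98 in NCCIT, 5.55 in 2102Ep, 5.23 in 833KE, 5.61 in TERA1 and 8.31 in NTERA2 on plastic, against a lowest value of 7.61 (Shef5), a median of 9.39 and a highest of 10.66 (Shef3) in ES. NTERA2 was the high EC line and lay above Shef5, so the groups overlap, while the other EC lines on plastic lay below every ES line. The mean was 6.14 ± 1.24 in EC on plastic (SD, n = 5) and 9.38 ± 1.05 in ES (SD, n = 6), a difference of -3.24 (SE 0.60, adjusted p = 0.0115, limma). Without NTERA2 the difference was -3.79 (adjusted p = 0.00202). With only the 3 EC lines that were also grown on feeders, SFRP1 was no longer called (-3.01, adjusted p = 0.0570).

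FRZB (cluster 2590715, chromosome 2) read 4.71 in NCCIT, 4.12 in 2102Ep, 4.29 in 833KE, 4.18 in TERA1 and 4.65 in NTERA2 on plastic, against a lowest value of 5.09 (H9), a median of 5.78 and a highest of 6.61 (Shef7) in ES. All EC lines lay below all ES lines. The difference was -1.44 (SE 0.27, adjusted p = 0.0107, limma). FRZB was thus 1 of 3 of these clusters whose groups did not overlap, all lower in EC on plastic, where the background is 1.52% of clusters.

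DKK1 (cluster 3247172, chromosome 10) read 3.65 in NCCIT, 4.36 in 2102Ep, 3.80 in 833KE, 4.14 in TERA1 and 3.99 in NTERA2 on plastic, against a lowest value of 4.72 (H9), a median of 5.98 and a highest of 7.52 (H14) in ES. The groups do not overlap, and the ES lines spread far more widely (SD 1.05, n = 6) than the EC lines on plastic (SD 0.28, n = 5). The difference was -2.07 (SE 0.43, adjusted p = 0.0196, limma). With the array code as a block, DKK1 was no longer called (-1.91, adjusted p = 0.0603), and the call was also lost with the 3 EC lines also grown on feeders (-2.00, adjusted p = 0.0734).

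LGR5 (cluster 3422144, chromosome 12) read 3.09 in NCCIT, 3.08 in 2102Ep, 3.41 in 833KE, 3.53 in TERA1 and 3.50 in NTERA2 on plastic, against a lowest value of 4.89 (H9), a median of 5.71 and a highest of 6.39 (Shef6) in ES. The groups are separated by more than the range of the EC lines. The difference was -2.31 (SE 0.25, adjusted p = 9.31e-04, limma), the smallest adjusted p among the 11 clusters. All EC values lie below 4.51, the lowest 25th percentile of any array.

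LEF1 (cluster 2781138, chromosome 4) read 4.12 in NCCIT, 4.02 in 2102Ep, 4.25 in 833KE, 4.15 in TERA1 and 4.96 in NTERA2 on plastic, against a lowest value of 4.63 (H9), a median of 6.11 and a highest of 6.61 (Shef7) in ES. NTERA2 was above H9, and no other pair of lines crossed. The difference was -1.57 (SE 0.32, adjusted p = 0.0169, limma). The call was lost when all 14 arrays set the spread (adjusted p = 0.0600), with the array code as a block (-1.40, adjusted p = 0.0541), among arrays with codes from 17 (-1.40, adjusted p = 0.0852) and with the 3 EC lines also grown on feeders (-1.46, adjusted p = 0.0757). Of the 5 EC arrays on plastic, 4 read LEF1 below their own 25th percentile.

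The other members gave smaller or less regular differences. DKK4 (cluster 3133325) averaged 4.97 ± 0.27 in EC on plastic (SD, n = 5) and 6.22 ± 1.34 in ES (SD, n = 6), and the ES spread came from H14 at 8.66 and Shef6 at 6.78, with H9 at 5.12 and Shef7 at 5.17 close to the EC lines. Its difference was -1.25 (95% interval -2.42 to -0.074, adjusted p = 0.228). SP5 (cluster 2514908) differed by -0.74 (95% interval -1.25 to -0.22, adjusted p = 0.104) and passed the test when H9, its lowest ES line at 7.17, was left out (-0.89, adjusted p = 0.0277). NKD1 (cluster 3660075) differed by -0.37 (95% interval -0.74 to -0.0064, adjusted p = 0.251).

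SFRP2 (cluster 2790368) ranged widely within the EC lines, with 10.53 in NTERA2, 9.05 in TERA1, 9.04 in 2102Ep, 7.83 in NCCIT and 7.58 in 833KE on plastic, against 8.50 to 10.37 in ES. NTERA2 lay above every ES line, NCCIT and 833KE lay below every ES line, and TERA1 and 2102Ep lay inside the ES range. The difference was -0.39 (95% interval -1.52 to 0.74, adjusted p = 0.757). AXIN2 differed by 0.070 (95% interval -0.29 to 0.43) in cluster 3767465 and by 0.12 (95% interval -0.49 to 0.73) in cluster 3767480. AXIN2 varied between EC lines on plastic (SD 0.38 and 0.71) more than between ES lines (SD 0.12 and 0.23), with TERA1 and 833KE high and NCCIT and NTERA2 low in cluster 3767480.

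**Figure D1:**
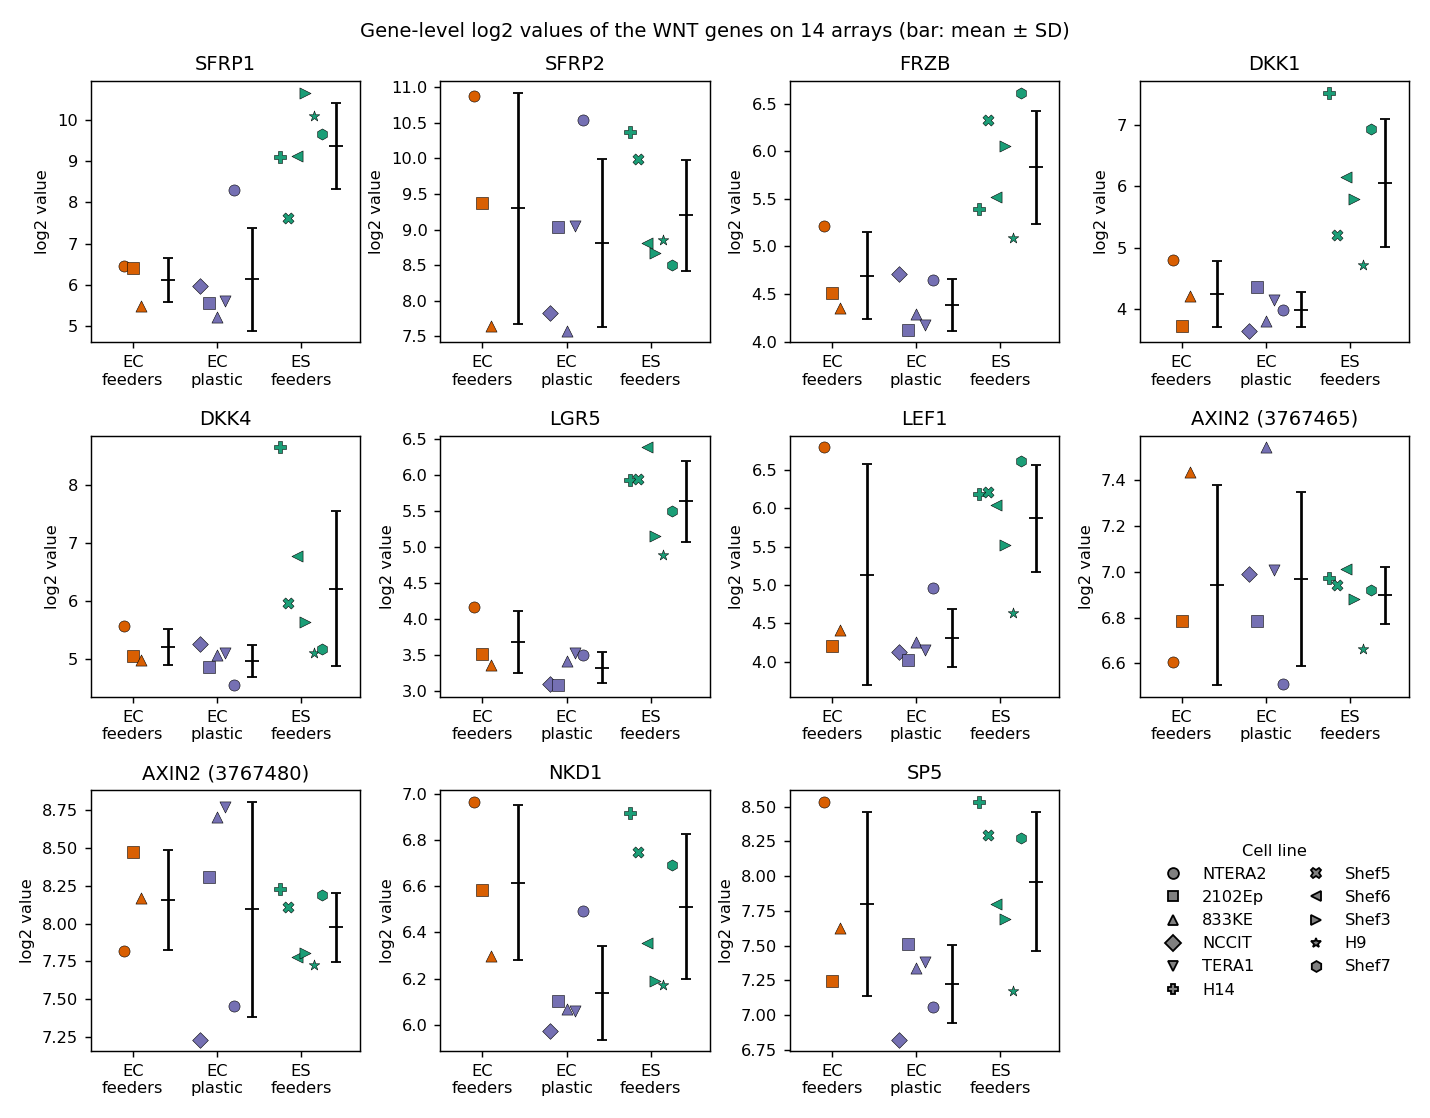
Gene-level values (log2, vertical axis) of the 11 clusters on each of the 14 arrays, with a symbol for each line and a bar for mean ± SD, for EC on feeders, EC on plastic and ES. LGR5, FRZB and DKK1 in EC on plastic lie below every ES line, whereas the AXIN2 clusters overlap in all groups.

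The second comparison set EC lines on feeders against ES lines in the same medium on the same feeders. SFRP1 and LGR5 were lower in EC on feeders, with differences of -3.27 and -1.95 (log2). All 3 LGR5 values in EC on feeders lie below the 25th percentile of their arrays, so its difference cannot be read as a fold of RNA. FRZB and DKK1 were below ES at differences of -1.14 and -1.82 without passing the test, and the other members were closer to ES. With limma, 2 of the 11 clusters were lower, against a background of 0.731%, and none was called higher, where the background is 1.56%. At an unadjusted p below 0.05 there were 4 lower (SFRP1, FRZB, DKK1, LGR5) and 0 higher, where the background is 6.32% lower and 11.3% higher. The median difference was -0.73, beside 0.042 over all clusters. Both EC-ES comparisons use the same 6 ES arrays, so their values are not independent of each other.

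SFRP1 read 6.45 in NTERA2, 6.40 in 2102Ep and 5.49 in 833KE on feeders, against 7.61 to 10.66 in ES. LGR5 read 4.17 in NTERA2, 3.51 in 2102Ep and 3.36 in 833KE on feeders, against 4.89 to 6.39 in ES. In both genes all EC lines on feeders lay below all ES lines, which held for 3.08% of all clusters. SFRP1 differed by -3.27 (SE 0.55, adjusted p = 0.0191) and LGR5 by -1.95 (SE 0.33, adjusted p = 0.0183, limma). Both calls were lost when 2102Ep or 833KE was left out (SFRP1 adjusted p = 0.0558 and 0.0566, LGR5 0.0700 and 0.0547), with the differences still between -1.79 and -3.41. Of the arrays with codes from 17, only 833KE is an EC line on feeders. Against the ES lines of those codes LGR5 differed by -2.12, a difference that rests on this 1 EC array. Among codes up to 13, with 2 EC and 2 ES arrays, neither call was made, with SFRP1 at -1.94 (adjusted p = 0.358) and LGR5 at -2.10 (adjusted p = 0.250).

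LEF1 on feeders read 6.80 in NTERA2, 4.20 in 2102Ep and 4.41 in 833KE, against 4.63 to 6.61 in ES. NTERA2 on feeders exceeded every ES line and the other 2 EC lines lay below every ES line. The mean difference of -0.73 (95% interval -2.02 to 0.55, adjusted p = 0.572) therefore averages 2 opposite positions, and it was -1.56 (adjusted p = 0.110) without NTERA2. SP5 on feeders read 8.53 in NTERA2, 7.24 in 2102Ep and 7.63 in 833KE, against 7.17 to 8.53 in ES. NTERA2 was level with the highest ES line, H14, and the other 2 lay inside the ES range. Its difference was -0.16 (95% interval -0.92 to 0.60, adjusted p = 0.868).

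The antagonists other than SFRP1 did not pass the test on feeders. FRZB read 5.21 in NTERA2, 4.51 in 2102Ep and 4.35 in 833KE, against 5.09 to 6.61 in ES, so that NTERA2 alone reached into the ES range (95% interval of the difference -1.90 to -0.37, adjusted p = 0.120). DKK1 read 4.79 in NTERA2, 3.72 in 2102Ep and 4.20 in 833KE, against 4.72 to 7.52 in ES, and again NTERA2 alone was above the lowest ES line, H9 (95% interval -3.05 to -0.58, adjusted p = 0.125). Both intervals lie below 0, and neither gene passed after adjustment over all clusters.

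DKK4 read 5.57 in NTERA2, 5.07 in 2102Ep and 4.99 in 833KE on feeders, a difference from ES of -1.01 (95% interval -2.51 to 0.49). SFRP2 read 10.88 in NTERA2, 9.37 in 2102Ep and 7.64 in 833KE, the same order of these 3 lines as on plastic, and differed from ES by 0.099 (95% interval -1.34 to 1.53). In these genes EC and ES lines overlap, and the intervals allow differences of more than 1 either way for SFRP2. NKD1 differed by 0.10 (95% interval -0.39 to 0.59), and AXIN2 by 0.044 (95% interval -0.38 to 0.47) in cluster 3767465 and 0.18 (95% interval -0.24 to 0.61) in cluster 3767480.

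Within the ES group the array codes went with some of these levels. SFRP1 averaged 8.37 over the 2 ES arrays with codes up to 13 and 9.89 over the 4 with codes from 17. SFRP2 averaged 10.18 and 8.71 in the same order. DKK4 averaged 7.31 and 5.68, but its mean for codes up to 13 rested on H14 at 8.66. Shef5, the other array with such a code, read 5.97, below Shef6 at 6.78 with code 17. The codes and the ES lines cannot be told apart, because each ES line has 1 array. With the code as a block, 3 members (SFRP1, FRZB and LGR5) were lower in EC on plastic, against a background of 1.04% of clusters in that fit, and 2 (SFRP1 and LGR5) in EC on feeders, against 0.586%.

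**Figure D2:**
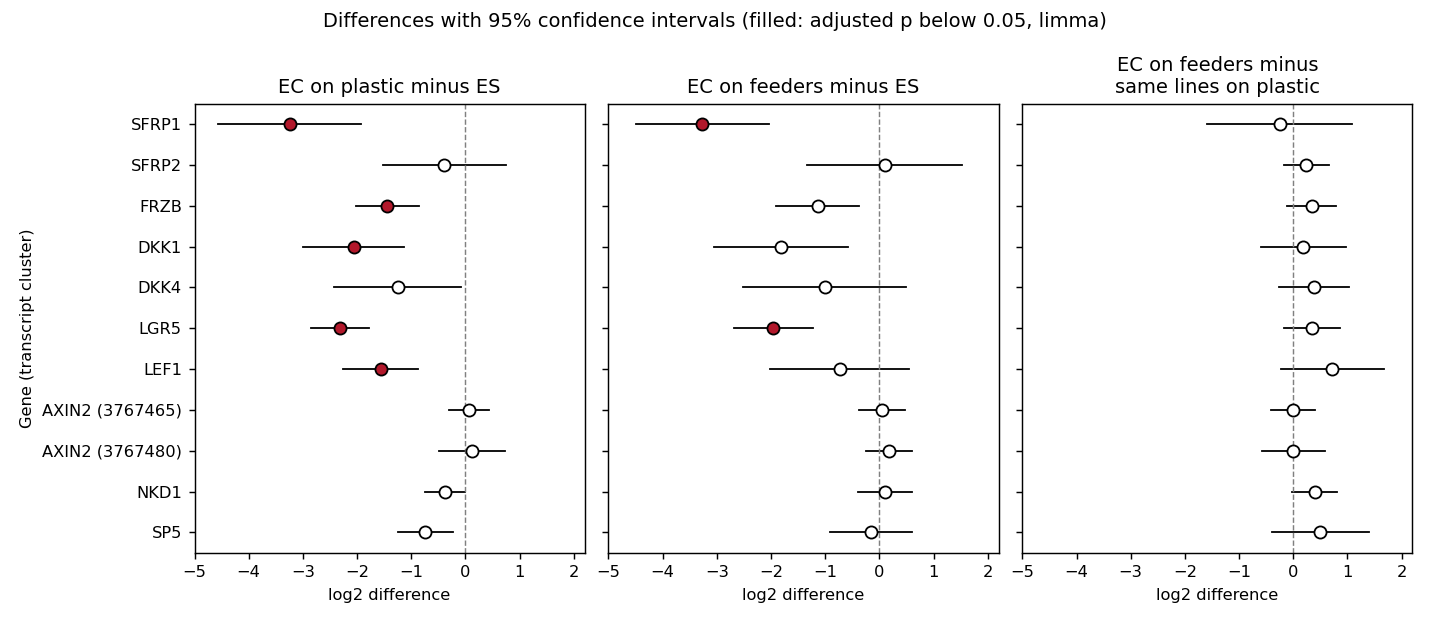
Fitted log2 differences of the 11 clusters with 95% intervals (horizontal axis) in the 3 comparisons, with filled points for an adjusted p below 0.05 in limma. Filled points appear for SFRP1, FRZB, DKK1, LGR5 and LEF1 in EC on plastic minus ES, and for SFRP1 and LGR5 in EC on feeders minus ES.

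The third comparison asked what growth on feeders in ES medium changed within the same EC lines. No member passed the test, and no cluster of the whole array did. With limma, 0 of 11 were called against a background of 0%, and at an unadjusted p below 0.05 there were 0 lower and 0 higher, against 7.86% and 7.02% of all clusters. Of the 11 differences, 9 were positive, with a median of 0.34 beside 0.022 over all clusters. The largest positive ones were LEF1 at 0.72 (95% interval -0.23 to 1.67), SP5 at 0.50 (95% interval -0.39 to 1.39) and NKD1 at 0.40 (95% interval -0.019 to 0.81, adjusted p = 0.352). Only 3 lines enter these intervals.

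The averages hide a difference between lines, with LEF1 and SP5 higher on feeders by more than 1 in NTERA2 and in neither of the other lines. LEF1 read 6.80 on feeders and 4.96 on plastic in NTERA2, a difference of 1.83, and only 0.536% of all clusters had a larger one in that line. SP5 read 8.53 on feeders and 7.06 on plastic in NTERA2, a difference of 1.47 that 1.28% of clusters exceeded. DKK4 differed by 1.01 and DKK1 by 0.81 in NTERA2. In 2102Ep the differences were 0.18 for LEF1 and -0.27 for SP5, and in 833KE they were 0.16 and 0.29.

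SFRP1 went the other way in NTERA2, at 6.45 on feeders and 8.31 on plastic, a difference of -1.86, while it differed by 0.85 in 2102Ep and 0.26 in 833KE. These are single pairs of arrays with no test. At probeset level, 15 of the 17 LEF1 probesets and all 8 SP5 probesets were higher on feeders in NTERA2, with medians of 2.34 and 1.40, where 49.0% of all probesets were higher. For SFRP1 1 of 11 probesets was higher on feeders in NTERA2 (median -1.85). These genes were picked for their gene-level differences, and their probesets summarise the same 2 arrays, so the probesets add no separate evidence. The 2 NTERA2 arrays carry codes 11 (feeders) and 25 (plastic), so growth condition and array code cannot be told apart in this line.

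NTERA2 on feeders was the highest of the 8 EC arrays in 8 of the 11 clusters (SFRP2, FRZB, DKK1, DKK4, LGR5, LEF1, NKD1 and SP5), and it was the highest in 14.9% of all clusters. Among ES lines, H9 was the lowest of the 6 in 9 of the 11 clusters, against 14.3% of all clusters, with SFRP1 and SFRP2 as the exceptions. H14 was the highest ES line in 6 of the 11, for SFRP2, DKK1, DKK4, NKD1, SP5 and AXIN2 (cluster 3767480), against 20.7% of all clusters.

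**Figure D3:**
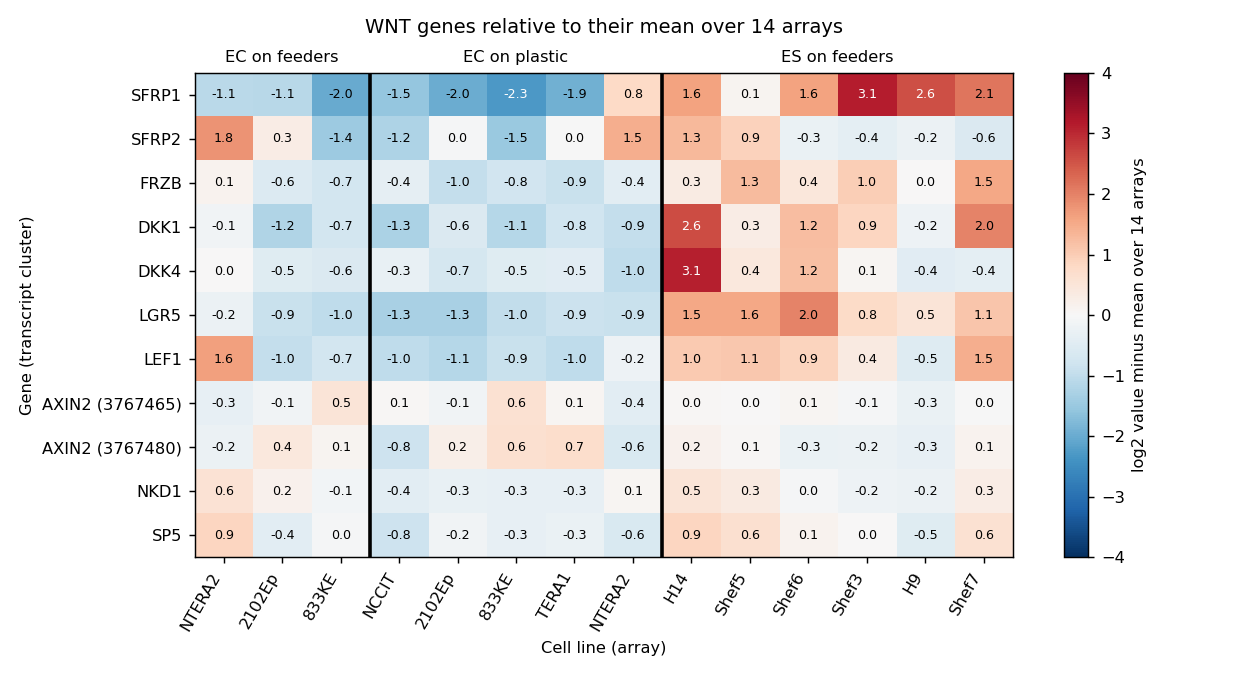
Each cluster's log2 value minus its mean over the 14 arrays (colour scale and printed value), with arrays grouped as EC on feeders, EC on plastic and ES. The column of NTERA2 on feeders holds the highest EC value in 8 of 11 clusters, and the column of H9 the lowest ES value in 9 of 11.

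Markers of other cell types were read on the same arrays. The summed level of 12 primitive streak and endoderm markers lay between 10.02 and 12.02 (log2) in EC on feeders, with NTERA2 highest, between 9.61 and 9.90 in EC on plastic and between 10.85 and 12.36 in ES, with H14 highest. Of these 12, 5 were lower in EC on plastic than in ES (CER1, MIXL1, EOMES, GATA6 and SOX17) and 2 in EC on feeders (CER1 and CXCR4). The backgrounds are 1.34% and 0.731% of all clusters called lower. None of the 12 lay below the 25th percentile on every array of a group.

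The summed level of 14 fibroblast markers lay between 11.28 and 12.32 in EC on feeders, between 10.85 and 11.51 in EC on plastic and between 11.29 and 12.36 in ES. In EC on plastic 3 of the 14 (COL1A1, COL5A2 and COL6A1) were called lower than in ES, against 1.34% of all clusters. There 12 of the 14 differences were negative, and THY1 (0.91) and TWIST1 (0.35) went the other way without a call. Of 8 neural markers, ZIC2 alone was called lower in EC on plastic, against the same background. The part of these markers in the differences of the WNT genes was not tested.

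The exon probesets are a second summary of the same arrays. Of the 119 probesets of these genes, 37 were lower in EC on plastic, against a background of 0.745%, and none was called higher, where the background is 2.07% (limma). At an unadjusted p below 0.05 there were 66 lower and 0 higher, beside 5.70% and 11.3% of all probesets. In EC on feeders against ES, 11 were lower, against a background of 0.344%, and none was called higher, where the background is 0.610%. At an unadjusted p below 0.05 there were 41 lower and 2 higher, beside 5.08% and 8.55% of all probesets. Between feeders and plastic in the same lines none was called, against a background of 0%, with 0 lower and 16 higher at an unadjusted p below 0.05, beside 7.27% and 5.45% of all probesets.

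Most called probesets belonged to LGR5 and SFRP1. In EC on plastic, 15 of 21 LGR5 probesets were lower, and all 21 had a negative difference. For SFRP1, 10 of 11 were lower, and the counts were 5 of 17 for LEF1, 3 of 7 for DKK1, 3 of 9 for FRZB and 1 of 8 for SP5. No probeset of SFRP2, DKK4, AXIN2 or NKD1 was called. In EC on feeders the calls fell on SFRP1 (6 of 11) and LGR5 (5 of 21).

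The brightest SFRP1 probeset, 3132784, averaged 7.28 ± 0.51 in EC on feeders (SD, n = 3), 7.50 ± 1.62 in EC on plastic (SD, n = 5) and 11.29 ± 1.11 in ES (SD, n = 6). It differed from ES by -4.01 (adjusted p = 0.0117) on feeders and by -3.78 (adjusted p = 0.0124, limma) on plastic. NTERA2 on plastic, at 10.31, was again the high EC array. In the other called genes the brightest probeset did not pass: LGR5 3422146 differed by -0.76 (adjusted p = 0.182) and FRZB 2590732 by -0.49 (adjusted p = 0.329) in EC on plastic. DKK1 3247174 differed by -1.41 (adjusted p = 0.0793) and LEF1 2781202 by 0.35 (adjusted p = 0.471) there. The called probesets of LGR5, FRZB, DKK1 and LEF1 were dimmer than these.

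The probesets with the most negative differences show the range of these genes and were singled out after their values were seen. LGR5 3422197 averaged 2.75 ± 0.19 in EC on feeders (SD, n = 3), 2.41 ± 0.73 in EC on plastic (SD, n = 5) and 6.17 ± 0.75 in ES (SD, n = 6), and no EC array reached an ES array. DKK1 3247183 read 1.96 to 3.15 in EC on plastic against 4.77 to 8.79 in ES, a difference of -4.25 (adjusted p = 0.00196). FRZB 2590725 read 1.54 to 4.82 in EC on plastic against 5.61 to 8.16 in ES, a difference of -3.74 (adjusted p = 0.00793). In EC on plastic these probesets averaged 2.41 (LGR5), 2.51 (DKK1) and 3.27 (FRZB). These means lie below 4.62, the lowest exon-level 25th percentile of any array, so the differences cannot be read as folds of RNA.

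LEF1 2781144 differed by -3.03 (adjusted p = 0.00969) between EC on plastic and ES, with 5.46 in NTERA2 on plastic above 5.26 in H9. Its mean in EC on plastic was 4.17, also below 4.62. On feeders the same probeset read 8.55 in NTERA2, 3.90 in 2102Ep and 3.23 in 833KE, so the split between NTERA2 and the other 2 lines seen at gene level was wider there. SP5 2514919, the only called SP5 probeset, averaged 6.96 ± 0.37 in EC on plastic (SD, n = 5) and 8.12 ± 0.48 in ES (SD, n = 6), a difference of -1.16 (adjusted p = 0.0377, limma).

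Within SFRP1, 8 probesets differed by -2.34 to -4.43 in EC on plastic. The other 3, numbered 3132815, 3132816 and 3132817, differed by -0.92, -1.09 and 0.15 and were singled out after their values were seen. Probeset 3132817 read 7.81 to 8.46 in EC on plastic and 7.34 to 8.87 in ES, and the groups overlap. Exon usage, the difference of a probeset from the rest of its gene, was tested with diffSplice of limma in genes above the median signal, which kept SFRP2, AXIN2, NKD1 and SP5 and left out the other 6. None of their 43 kept probesets was called in EC on plastic, against a background of 0.182%, and none of 44 in EC on feeders, against 0.0628%. At an unadjusted p below 0.05 there were 2 in EC on plastic and 0 in EC on feeders. The 2 were SP5 2514923 (adjusted p = 0.275) and AXIN2 3767472 (adjusted p = 0.568, diffSplice). The share of all kept probesets at the unadjusted threshold was not counted, so these 2 are not read as differences in exon usage.

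**Figure D4:**
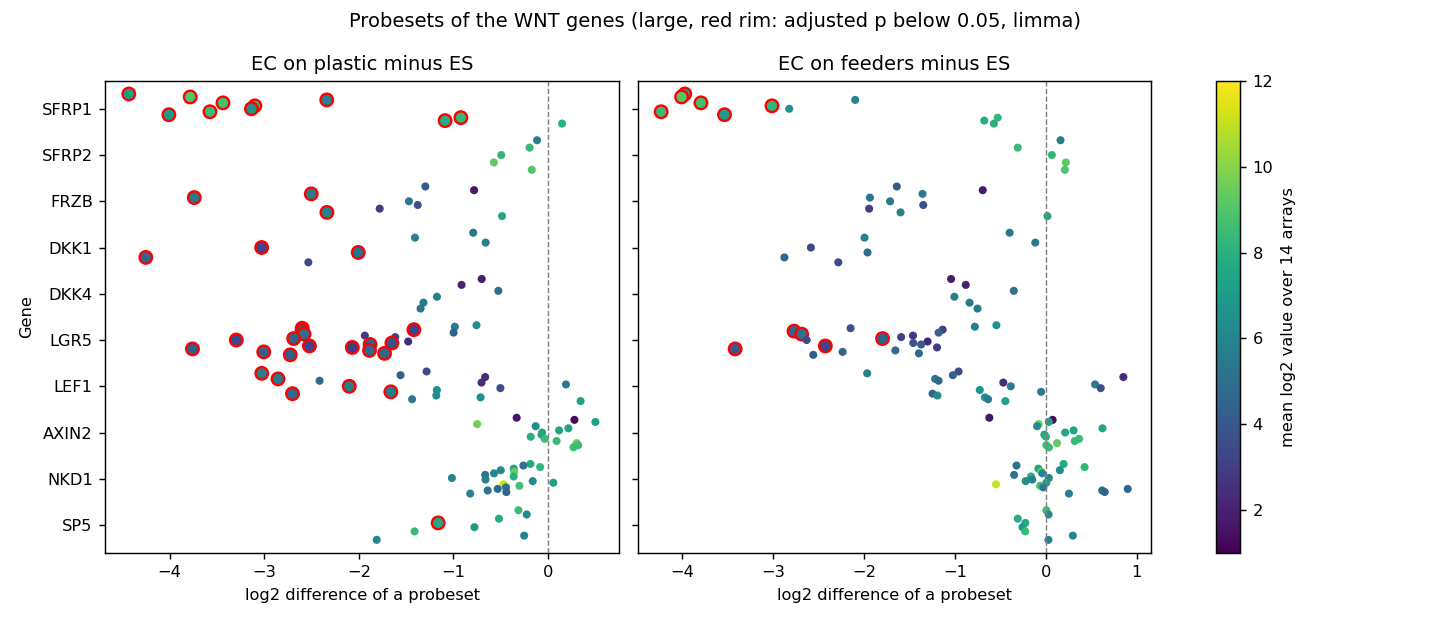
Differences of the exon probesets from ES (log2, horizontal axis) by gene, for EC on plastic and EC on feeders, coloured by mean log2 value, with large red-rimmed points for an adjusted p below 0.05 in limma. In EC on plastic 15 of 21 LGR5 and 10 of 11 SFRP1 probesets carry a red rim, and 3 SFRP1 probesets lie apart at -0.92, -1.09 and 0.15.

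Genes whose pattern over the 14 arrays was most like each member were read from the gene level, by Pearson's r among 14232 genes. These arrays share the same group means and codes, so r describes the pattern and carries no test. SFRP1 was closest to SLC22A17 (0.961), MGAT4C (0.961) and RAB3C (0.953), and LGR5 to COLEC12 (0.944), CA11 (0.935) and RRAS (0.932). LEF1 was closest to OLFML2A (0.917), to the ligand WNT8A (0.880) and to BMP2 (0.873), and DKK4 to IZUMO1 (0.867), FOXA2 (0.862) and DCHS1 (0.831). DKK1 was closest to GALP (0.888), TTC29 (0.872) and LGR5 (0.859), the only pair within the 10 genes.

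The remaining members had partners outside the pathway list. FRZB was closest to the activin antagonist FST (0.898), CITED2 (0.889) and BID (0.876), and SP5 to FAM167A (0.885), COL5A1 (0.885) and MRFAP1 (0.864). NKD1 was closest to PLAUR (0.928), TPM2 (0.927) and CRABP2 (0.925), and SFRP2 to RAVER1 (0.928), PIAS3 (0.910) and UBAP2L (0.901). AXIN2 cluster 3767480 was closest to ATP8B1 (0.919), SESN1 (0.899) and JAML (0.897), and cluster 3767465 to RNF17 (0.860), DSG3 (0.849) and LINC01879 (0.849).

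The rest of the pathway was followed in a list of 93 other WNT genes, of which 84 had a cluster. In EC on plastic, 7 of the 84 were lower and 1 was higher, against 1.34% and 3.26% of all clusters, with a median difference of -0.12 beside 0.0046 over all clusters. CER1, which is secreted and blocks nodal and BMP, and in frogs also WNT, differed by -5.31 (adjusted p = 1.08e-05). WLS, which carries WNT ligands to the cell surface, differed by -1.95 (adjusted p = 0.0478), RSPO3, an R-spondin and so a ligand of LGR5, by -1.22 (adjusted p = 0.0469) and the ligand WNT8A by -1.11 (adjusted p = 0.0301). RSPO3 averaged 3.05 in EC on plastic and 4.27 in ES, both below 4.51, the lowest 25th percentile of any array. The co-receptor LRP6 was higher, by 1.11 (adjusted p = 0.0215).

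By role, 3 of 10 other antagonists, 1 of 19 ligands, 1 of 3 R-spondins, 1 of 11 nuclear factors and the single measured gene of ligand secretion were lower in EC on plastic, against the same 1.34% of all clusters. None of 14 cytoplasmic genes and none of 8 further targets was called. In EC on feeders, 3 of the 84 were lower and 2 higher, against 0.731% and 1.56% of all clusters, with a median of -0.027 beside 0.042 over all clusters. CER1 differed by -2.68 (adjusted p = 0.0327), FZD4, a Frizzled receptor, by -0.95 (adjusted p = 0.0226) and TCF7L2, a DNA-binding partner of beta-catenin, by -0.94 (adjusted p = 0.0266). The ligands WNT5B and WNT3 were higher, by 2.18 (adjusted p = 0.0114) and 0.92 (adjusted p = 0.0443). Of the genes named on plastic, WLS differed by 0.22 (adjusted p = 0.913) and WNT8A by -0.12 (adjusted p = 0.947) in EC on feeders. RSPO3 at -1.16 (adjusted p = 0.165) and LRP6 at 0.91 (adjusted p = 0.0805, limma) kept their direction there without a call.

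Within the same EC lines none of the 84 was called between feeders and plastic, and their median difference was 0.11. The 2 with the smallest p were CER1, at 7.44 ± 1.42 on feeders and 5.03 ± 0.44 on plastic (SD, n = 3 each, adjusted p = 0.246), and APC, a scaffold of the beta-catenin degradation complex, at 5.60 ± 0.046 on feeders and 6.43 ± 0.30 on plastic (adjusted p = 0.246, limma).

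**Figure D5:**
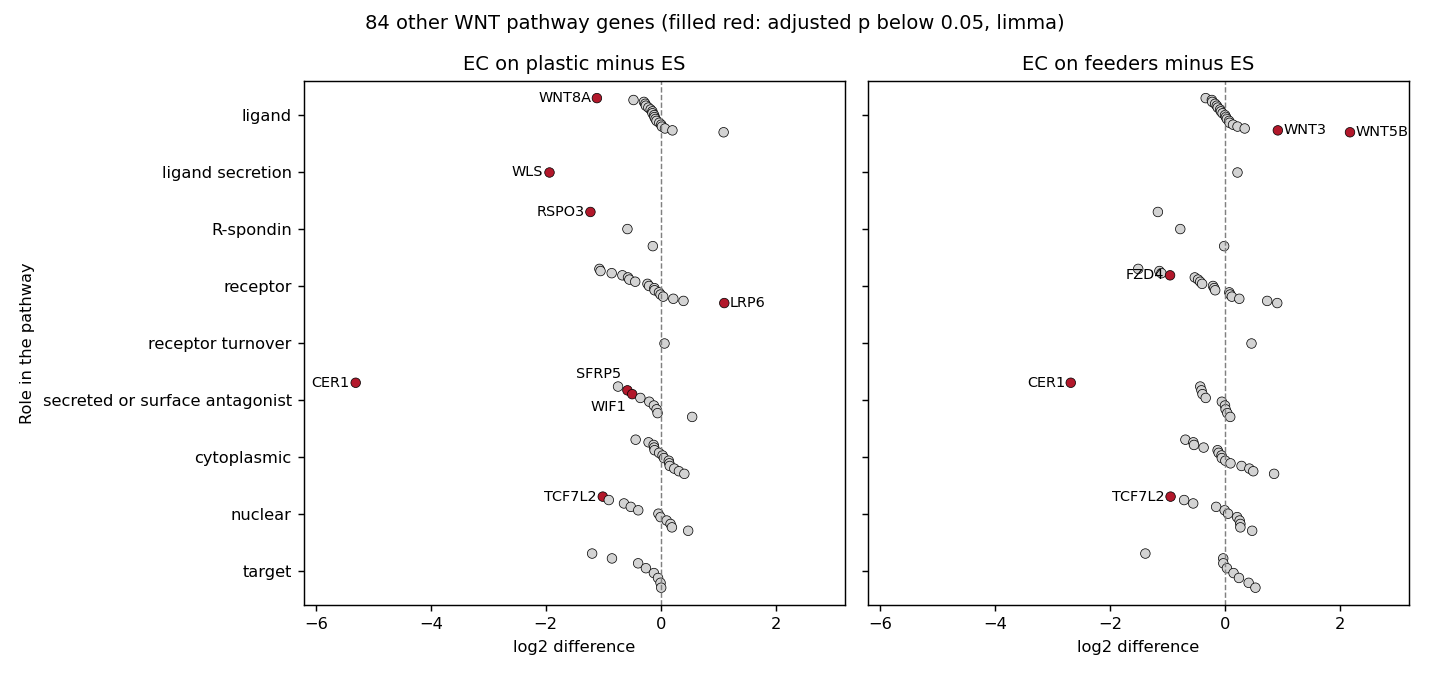
Differences from ES (log2, horizontal axis) of the 84 other WNT genes by role, for EC on plastic and EC on feeders, with red points for an adjusted p below 0.05 in limma. CER1 at -5.31 and -2.68 is the lowest point in both panels. TCF7L2, SFRP5 and WIF1 in EC on plastic are labelled because they were called, beyond the 4 largest differences.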

How the data were processed

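RNA of 14 SSEA3-sorted cultures was measured on exon arrays and summarised at gene and exon level. The deposited values are log2 values. RMA, Affymetrix Expression Console and limma are named without versions per the submitters' processing notes; the log base was read from the range of values, and the annotation release and genome build are not given in the sources used here. Symbols came from the platform annotation, with 14432 clusters of 1 symbol. Array medians lay between 6.19 and 6.39 at gene level, and nothing was renormalised for the main results.

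Groups came from the labels. Linear models (lmFit, eBayes, two-sided) were fitted with limma 3.58.1 under R 4.3.3 over all clusters or probesets, with Benjamini-Hochberg adjustment and a threshold of 0.05. For EC on feeders against plastic, the shared line was a block. Deviations from the condition means correlated at 0.51 (NTERA2), 0.41 (2102Ep) and 0.34 (833KE) between an array and its own line, and below 0 with every other line. Centring on means of few arrays itself pulls the values between different lines below 0, so these are no separate evidence for the pairing. Exon usage used diffSplice with a least difference of 1, on probesets above the 25th percentile and genes with at least 3 kept probesets. Alternatives were quantile normalisation, median centring, a filter on dim clusters, other arrays in the spread, the array code as a block or split, 3 EC lines only, and leaving out each array; the closing section gives their effect. The fits were tested on simulated data, and figures were drawn with matplotlib 3.10.9. Intervals are 95% intervals of the limma fit. Marker sums add linear values. The members, lists and alternatives were chosen with earlier results of these data known. Beyond the 10 genes, named WNT genes are the up to 4 called with the largest difference each way (the 2 smallest p where none was called), likeness names the 3 highest r, and probesets are the brightest of each gene. The number of arrays limits the precision.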

Additional observations from a re-analysis of the deposited data

Results flagged for a closer look

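There were 4 values that lay far from the rest of their own group, among 22 sets of lines checked with Dixon's ratio, for which chance gives about 1 in 20. In EC on plastic, NTERA2 stood above the other 4 lines for SFRP1, at 8.31 with the nearest line at 5.98. NTERA2 also stood above them for LEF1, at 4.96 with the nearest at 4.25, and for NKD1, at 6.49 with the nearest at 6.10. In ES, H9 stood below the other 5 lines for AXIN2 cluster 3767465, at 6.66 with the nearest at 6.88. Of the 4, 3 belong to 1 array, so they are not separate observations.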

How the results depend on the processing

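Of 480 member results under an alternative, 431 kept direction and side of the threshold, 14 lost the call, 1 gained it and 34 changed sign. The causes were not tested, and some of these fits used fewer arrays. In EC on plastic against ES, 3 members were called with the array code as a block and 2 with the 3 EC lines also grown on feeders, where 0.986% of all clusters were called lower. Leaving out 1 array gave 5 to 6, where 587 to 1257 of the 22011 clusters were called in either direction. SFRP1 (adjusted p = 0.0570), DKK1 (0.0734) and LEF1 (0.0757) were lost with those 3 lines. In EC on feeders against ES, 0 members were called among codes up to 13, an alternative added after seeing the data. Without 1 array it was 0 to 2, where 167 to 594 of all clusters were called in either direction. Among codes from 17 the EC arm is 833KE alone, so calls of that fit are not given. On plastic, member probesets called numbered 21 with codes from 17, whose share over all probesets is not given here. Without 1 array they numbered 25 to 44, where 3699 to 9688 of 287329 probesets were called in either direction. On feeders they numbered 4 to 12 without 1 array, where 802 to 3793 of all probesets were called. They were 4 without 2102Ep, 6 without 833KE and 7 without Shef6. The code alternatives at exon level were also added after seeing the data. For exon usage in EC on plastic, 1 probeset was called with dim probesets below the median left out (SFRP1 3132817, 2.80). With no filter there were 3 (also DKK1 3247183, -2.52, and FRZB 2590725, -2.24). The shares of all probesets called in these fits are not given here. DKK1 3247183 and FRZB 2590725 averaged 2.51 and 3.27 in EC on plastic, below 4.62, the lowest exon-level 25th percentile of any array. Without 1 array the count for exon usage was 0 to 2, with 2 without NTERA2, where 109 to 518 of all kept probesets were called.

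Sign changes fell on members without a call. In EC on plastic they were AXIN2 cluster 3767480 (-0.049, quantile normalisation) and SFRP2 (0.10, code block and codes from 17). In EC on feeders they were SFRP2 (-0.038 quantile normalisation, -0.51 code block, -1.07 codes from 17, -0.054 codes up to 13), AXIN2 cluster 3767465 (-0.038 quantile normalisation, -0.26 codes up to 13), AXIN2 cluster 3767480 (-0.023 codes up to 13) and NKD1 (-0.056 code block, -0.053 codes from 17, -0.058 codes up to 13). Between feeders and plastic it was AXIN2 cluster 3767480 (-0.034, medians subtracted). Without 1 array, EC on plastic gave -0.074 to 0.18 and -0.050 to 0.33 for the AXIN2 clusters. EC on feeders gave -0.70 to 0.93 for SFRP2, -0.20 to 0.21 for AXIN2 cluster 3767465, -0.070 to 0.26 for NKD1 and -0.53 to 0.12 for SP5. Feeders against plastic gave -0.80 to 0.55 for SFRP1, -0.12 to 0.61 for DKK1, and -0.054 to 0.047 and -0.18 to 0.27 for AXIN2. Without the line as a replicate block, 0 members and 0 member probesets were called between feeders and plastic, and the pairing changed no call. The spread of all 14 arrays was not run there, since lines with a single array add nothing once the line is a block. Signal over background is unknown, which limits most the members that EC arrays on plastic read below their 25th percentile: LGR5 and DKK1 (5 of 5 arrays), LEF1 (4) and FRZB (3).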
